A study of Homo sapiens with 6 samples.

Results

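The enzymes examined here carry out phase I and phase II drug metabolism, and comprise the cytochrome P450 (CYP), aldehyde dehydrogenase (ALDH), UDP-glucuronosyltransferase (UGT), glutathione S-transferase (GST and microsomal MGST) and sulfotransferase (SULT) families. They were measured in OE33, an established cell line from a human esophageal adenocarcinoma. Members were all protein-coding genes whose symbols belong to these families, 125 of the 58735 genes in the count table. CYP1A1, CYP1B1, CYP51A1, ALDH3A1 and ALDH1L2 were left out of the set by name and are given only for comparison. There were 53 CYP, 17 ALDH, 22 UGT, 17 GST, 3 MGST and 13 SULT genes.

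Cells of the acidified bile salt group (ABS) were kept for 20 min in unsupplemented medium at pH 4.0 with 200 µM bile salts, then recovered for 6 h in complete medium. Control cells (Ctrl) were untreated, and both groups were otherwise grown in serum-supplemented RPMI1640. Each group had 3 libraries of polyadenylated RNA, which the submitters describe as independent biological replicates. The bile salt mixture was not specified, and with no group given acid, bile salts or the exposure medium alone, these cannot be told apart. The comparison asked how an acute exposure that models reflux bears on gene expression in these cells. All cells came from 1 cell line, so the replicates measure variation between cultures of that line.

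Phase I enzymes add or expose a polar group on a lipid-soluble compound, usually by oxidation. CYP enzymes are haem proteins that receive electrons from a reductase, whereas ALDH enzymes oxidise reactive aldehydes to acids. Phase II enzymes then attach glucuronic acid (UGT), glutathione (GST) or sulfate (SULT), which makes the product easier to export. Some family members act chiefly on the body's own compounds, among them retinoids, vitamin D, bile acids, steroids and fatty acids. Several CYP and phase II genes are induced by ligand-activated receptors, such as the aryl hydrocarbon receptor, or by the oxidative stress factor NRF2. In the esophagus these enzymes meet compounds from food, smoke and refluxed bile.

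The 6 libraries held 22145676 to 25235686 counts, and protein-coding genes took 98.3% to 98.5% of them. On the second principal component, with 25.9% of the variance, replicate 3 of ABS (-29.0) and of Ctrl (-19.0) lay away from the remaining libraries (2.73 to 18.5). Of 6 epithelial markers, 6 were detected, with summed levels of 25309 to 26279 TPM (counts divided by gene length and scaled to the same total in every library) in ABS and 25539 to 27261 TPM in Ctrl. Of 6 hepatocyte markers, 5 (ALB, APOA2, AHSG, TTR and FGB) were at 0 in every library, and the summed level of the list was 0.787 to 1.18 TPM in ABS and 0.563 to 1.01 TPM in Ctrl. Of 6 immune markers, 3 (PTPRC, CD3E and MS4A1) were at 0, and the list summed to 10.1 to 11.9 TPM in ABS and 10.6 to 12.6 TPM in Ctrl. The 6 fibroblast markers summed to 1.01 to 1.88 TPM in ABS and 1.03 to 1.24 TPM in Ctrl. The 4 endothelial markers together reached at most 0.121 TPM in ABS and 0.0247 TPM in Ctrl.

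OE33 cells expressed a narrow part of the drug metabolism repertoire, and no member passed the test between ABS and Ctrl. GSTP1, ALDH1A3, GSTO1, ALDH18A1 and MGST1 were the only members at or above 100 TPM in Ctrl, whereas CYP3A4, CYP2C8, CYP2C19, GSTA1 and SULT2A1, enzymes abundant in liver or gut, had no counts at all. Of the 46 members with enough counts to test, 0 passed the threshold in either direction in edgeR, beside 60 of all 13768 tested genes (0.436%). At so small a share, 0 of 46 does not set the members apart from other genes. The nearest was ALDH1A3, an enzyme of retinoic acid synthesis, which was 1.22-fold higher in ABS. Over the same 6 libraries CYP1A1 and CYP1B1 rose 22.6-fold and 8.71-fold and were called. Both were left out of the set by name, so the 0 holds for a set without them.

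Detection differed widely between classes. Of the 125 members, 46 passed the filter on low counts, 27 had at least 1 count but did not pass, and 52 had 0 counts in all 6 libraries. A count of 0 in a library allows up to 3 counts, or 0.118 to 0.137 CPM (counts scaled to library size), and this limit covers counting error only. In Ctrl, 39 members had a mean of at least 1 TPM and 22 of at least 10 TPM. A filter that keeps a gene for its counts in either group selects on level, so values over the 46 tested members do not stand for all members.

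**Figure D1:**
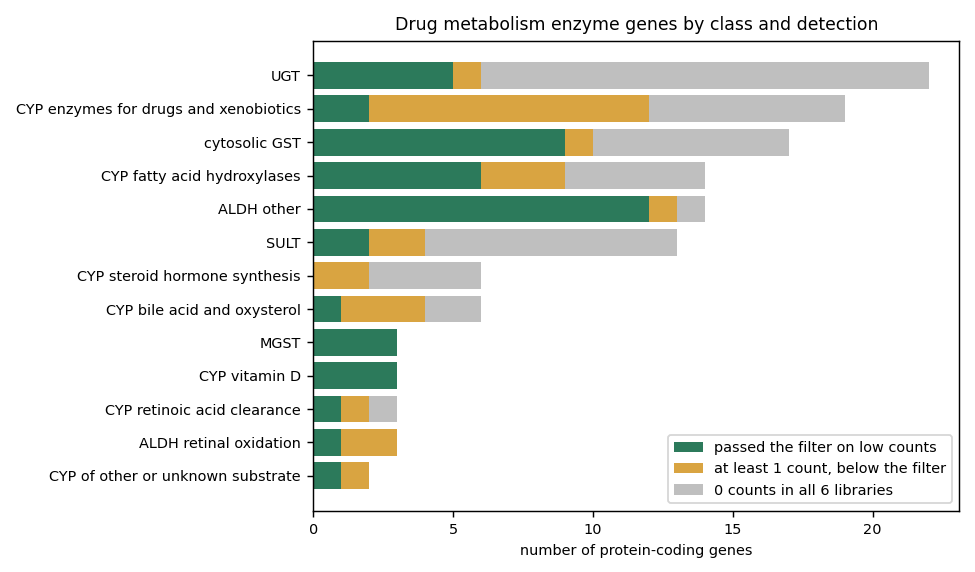
Number of genes in each of 13 enzyme classes (horizontal axis), split into those past the filter on low counts, those with at least 1 count below it, and those at 0 in all 6 libraries. All 3 MGST and all 3 vitamin D CYP genes passed, against 2 of 19 CYP enzymes for drugs and xenobiotics and 5 of 22 UGT genes.

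Most members of the CYP families known for drug and xenobiotic oxidation were nearly silent. Of 19 such members, 2 were tested, 10 had a few counts and 7 had 0 counts. CYP1A1 and CYP1B1 belong to these families but are outside the set, and both were called higher in ABS, as given below. CYP2S1, an epithelial CYP of extrahepatic tissues, was at 25.1 ± 1.17 TPM in Ctrl (SD, n = 3), rank 5301 among protein-coding genes. CYP3A5, a CYP3A enzyme of gut and liver that oxidises many drugs, was at 11.1 ± 0.106 TPM in Ctrl. CYP2E1, which oxidises ethanol and small solvents, had 6, 20 and 8 counts in ABS and 10, 2 and 13 counts in Ctrl. CYP1A2, CYP2A6 and CYP2F1 had a single count each over the 6 libraries.

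CYP genes for endogenous lipids and hormones were mostly low, with the vitamin D class as the exception. CYP24A1, the hydroxylase that inactivates vitamin D, was the highest CYP in the set, at 73.1 ± 5.05 TPM in Ctrl (SD, n = 3), and held 87.4% of the summed TPM of its class. CYP2R1, which hydroxylates vitamin D at its first activating step, was at 8.18 ± 0.432 TPM in Ctrl. CYP27B1, which completes the activation, was at 2.56 ± 0.0778 CPM in ABS and 2.26 ± 0.629 CPM in Ctrl. None of the 6 genes of steroid hormone synthesis was tested, and 4 of them had 0 counts. Of the bile acid and oxysterol class only CYP27A1, a mitochondrial sterol hydroxylase of bile acid synthesis, was tested, with 0.323, 0.918 and 0.628 CPM in ABS and 0.425, 0.774 and 0.579 CPM in Ctrl. CYP7A1, the rate-limiting enzyme of bile acid synthesis, had 1 count in ABS and 0 in Ctrl. CYP8B1, which directs synthesis to cholic acid, had 5 counts in ABS replicate 3 and 0 elsewhere.

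The ALDH family was the most broadly expressed of the large families, with 13 of 17 genes tested. ALDH18A1, a proline synthesis enzyme, was at 232 ± 8.78 TPM in Ctrl (SD, n = 3). ALDH1B1, a mitochondrial enzyme that oxidises acetaldehyde, was at 83.9 ± 4.96 TPM, above ALDH9A1 (67.0 ± 5.20 TPM), ALDH3A2 (59.2 ± 5.33 TPM) and ALDH3B1 (53.8 ± 1.75 TPM). The Ctrl values of ALDH1B1 lay above those of ALDH9A1, whereas those of ALDH9A1 and ALDH3A2 overlapped, as did those of ALDH3A2 and ALDH3B1. ALDH2, the main mitochondrial acetaldehyde dehydrogenase, was only at 9.04 ± 1.38 TPM. Of the 3 enzymes that oxidise retinal to retinoic acid, ALDH1A3 held 99.97% of the summed TPM, while ALDH1A1 had 11 and ALDH1A2 also 11 counts over all 6 libraries.

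GSTP1, the pi class enzyme prominent in many epithelia and tumours, was the highest member of all, at rank 68 among protein-coding genes. Its level was 1388, 1373 and 1442 TPM in ABS and 1421, 1453 and 1416 TPM in Ctrl. GSTO1, an omega class enzyme with thioltransferase activity, followed at 284 ± 5.98 TPM in Ctrl (SD, n = 3), rank 526. The alpha class genes GSTA1, GSTA2, GSTA3 and GSTA5 and the mu class genes GSTM1 and GSTM5 were at 0 in every library, and GSTM3, another mu class gene, was at 25.3 ± 0.520 TPM in Ctrl. MGST1, a microsomal transferase and peroxidase, was at 124 ± 5.99 TPM, MGST2 at 27.0 ± 2.26 TPM and MGST3 at 16.8 ± 1.84 TPM.

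Among the UGT genes only UGT8, which transfers galactose to ceramide and is not a drug enzyme, exceeded 10 TPM, at 26.7 ± 1.75 TPM in Ctrl (SD, n = 3). Of the drug-conjugating UGT genes, UGT1A1, UGT1A6, UGT1A10 and UGT2B7 were tested and 16 of the 22 members were at 0. SULT2B1, which sulfates cholesterol and hydroxysteroids in epithelia, was the highest SULT gene, at 22.9 ± 2.82 TPM. SULT1A1, the main phenol sulfotransferase, was the only other SULT gene tested, and 9 of 13 were at 0.

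**Figure D2:**
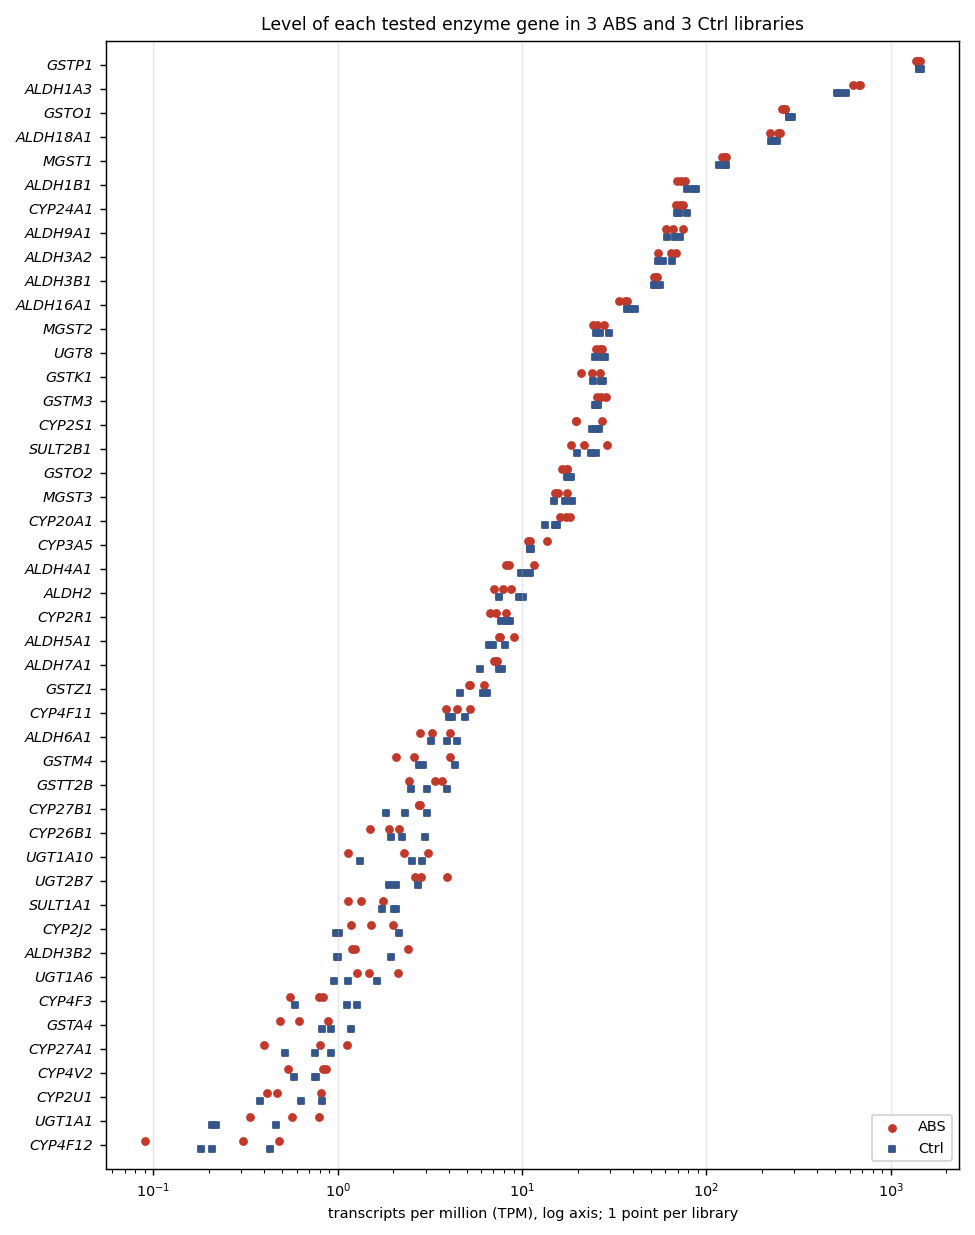
Level in TPM (horizontal log axis) of each of the 46 tested members in the 3 ABS (circles) and 3 Ctrl (squares) libraries, ordered by mean Ctrl level. The points of both groups interleave for most genes. ALDH1A3, with 623 to 683 TPM in ABS and 512 to 571 TPM in Ctrl, and CYP20A1 lie wholly higher in ABS. ALDH1B1 and GSTO1, and by a narrow margin ALDH16A1 and GSTO2, lie wholly lower in ABS in TPM. In CPM, 0 of the 46 tested members lie wholly lower.

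The order of levels depended on which length a count was divided by. The deposited lengths equal the union of all annotated exons, which for some genes far exceeds the main transcript. With the length of the annotated principal transcript, MGST1 stood second at 581 TPM in Ctrl, above ALDH1A3 at 452 TPM, and MGST3 and GSTO2 stood at 93.8 and 86.9 TPM. GSTP1 remained first, at 1843 TPM. The order of the ALDH genes given above also turned, with ALDH3B1 at 80.8 TPM and ALDH3A2 at 60.3 TPM above ALDH1B1 at 49.6 TPM and ALDH9A1 at 47.2 TPM. CYP3A5 at 24.9 TPM likewise stood above CYP2S1 at 14.9 TPM. The numbers of members at or above 1, 10 and 100 TPM became 40, 24 and 5.

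**Figure D3:**
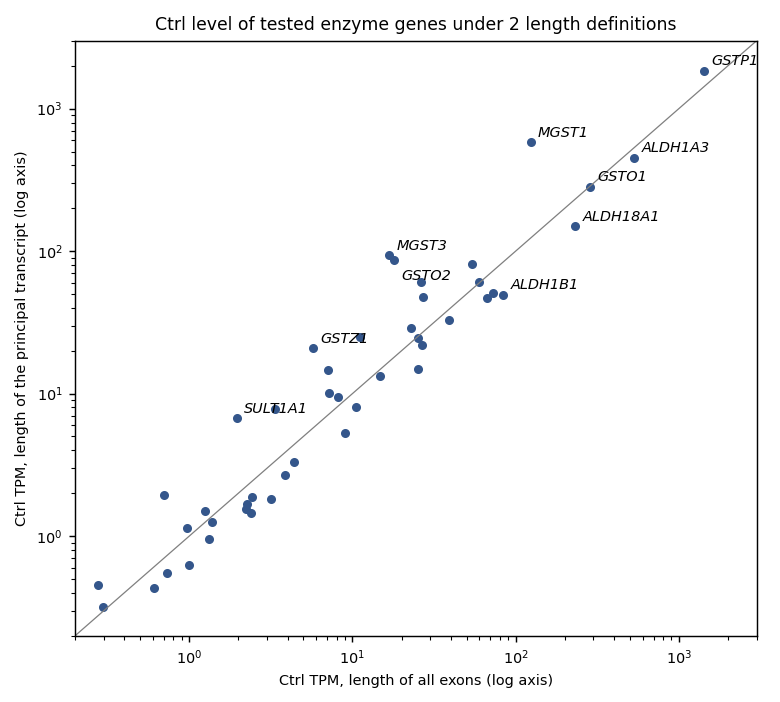
Mean Ctrl TPM of the 46 tested members with the length of all exons (horizontal log axis) against that with the length of the principal transcript (vertical log axis), and the line of equal values. MGST1, MGST3, GSTO2, GSTZ1 and SULT1A1 lie well above the line, so their order among members depends on the length used.

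For the comparison of ABS with Ctrl, 60 of all 13768 tested genes, or 0.436%, passed an adjusted p of 0.05 in edgeR. With 51 genes (0.37%) higher and 9 genes (0.0654%) lower in ABS over all tested genes, 0 of 46 members passed in either direction. At an unadjusted p under 0.05 there were 2 members, ALDH1A3 and ALDH1B1, or 4.35%, against 9.75% of all tested genes. DESeq2 called 1 member, ALDH1A3, with 1.92% of all tested genes called, and limma-voom called 0 members with 0.45% of all tested genes called. A fit with no filter (1.64% of all tested genes called) and a fit with a replicate block (2.54% called) also called ALDH1A3 as the single member. In CPM, the 3 ABS values lay wholly above the 3 Ctrl values for 2 of the 46 tested members, ALDH1A3 and CYP20A1, and wholly below for 0, against 7.57% of all tested genes above and 6.95% below. In TPM, ALDH1B1, ALDH16A1, GSTO1 and GSTO2 lay wholly below. The share over all tested genes was not counted in TPM, so these 4 do not set the members apart from other genes. The median log2 fold change over the 46 members was -0.04, and 19 of them (41.3%) were positive. Over all tested genes the median was -0.00 and 49.0% were positive.

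The precision behind these values was uneven. The 95% interval of the fold change lay within 2-fold in either direction for 36 of 46 members (78.3%), against 81.4% of all tested genes, and within 1.5-fold for 28 members. The other 10 members, each with a mean under 3 CPM in both groups, could differ by more than 2-fold without being detectable at this depth and number of libraries.

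**Figure D4:**
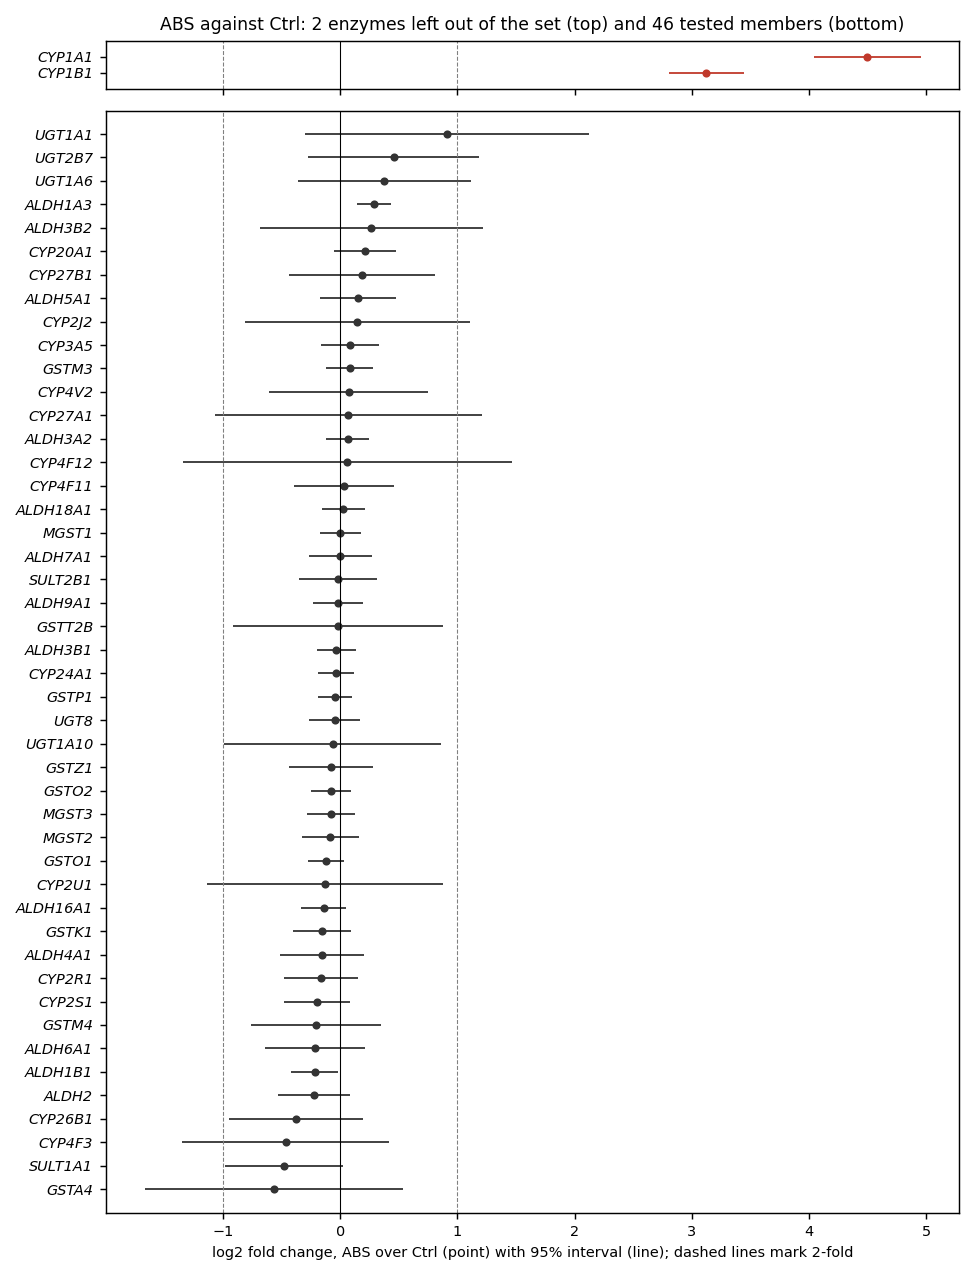
Log2 fold change of ABS over Ctrl (point) with its 95% interval (line) for the 46 tested members (lower panel) and for CYP1A1 and CYP1B1, which are outside the set (upper panel). All members except UGT1A1 have an estimate within 0.57 of 0 on the log2 scale, whereas CYP1A1 is at 4.50 and CYP1B1 at 3.12.

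ALDH1A3 (ENSG00000184254, GRCh38 chr15:100877714-100916626, plus strand) had 1071, 982 and 1015 CPM in ABS, against 831, 828 and 854 CPM in Ctrl. The lowest ABS library lay above the highest Ctrl library. The log2 fold change was 0.29 ± 0.07 (SE), with a 95% interval of 0.14 to 0.43, and the edgeR adjusted p was 0.093. It was 0.31 over replicates 1 and 2 and 0.25 between the replicate 3 libraries. Its unadjusted p of 0.000865 was the smallest of any member. It passed the threshold in 7 of 15 alternatives, among them DESeq2 (adjusted p = 0.0072), and its adjusted p ranged from 1.7e-05 to 0.478 over them. The antisense gene AC015712.2 covers 27.5% of the exonic bases of ALDH1A3 on the other strand. That gene had 170, 126 and 259 counts in ABS and 95, 96 and 151 counts in Ctrl (log2 fold change 0.62, edgeR adjusted p = 0.409). The strand setting of the counting is not given in the sources used here, so reads of the 2 genes cannot be told apart over that stretch, and their part in the ALDH1A3 difference was not tested.

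CYP1A1 and CYP1B1, aryl hydrocarbon receptor targets, show what a called enzyme gene looked like in these libraries. CYP1A1 had 46.3, 48.0 and 72.0 CPM in ABS, against 2.13, 2.14 and 3.06 CPM in Ctrl (log2 fold change 4.50 ± 0.21 SE, edgeR adjusted p = 4.05e-07). CYP1B1 had 58.7, 61.8 and 58.9 CPM in ABS, against 6.93, 5.10 and 8.48 CPM in Ctrl (log2 fold change 3.12 ± 0.15 SE, edgeR adjusted p = 4.05e-07). The third CYP1 gene, CYP1A2, is a member and had 1 count in ABS and 0 in Ctrl. Of the other genes left out of the set, CYP51A1 (0.01), ALDH3A1 (0.07) and ALDH1L2 (0.28) had log2 fold changes that did not pass.

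The promoter windows of ALDH1A3, the member nearest the threshold, and of CYP1A1, the higher of the called enzyme genes outside the set by fold, are set side by side for the core letters GCGTG of the aryl hydrocarbon receptor element. Each window runs from 250 bases before to 50 bases after the RefSeq gene start on GRCh38.p14, printed 5′ to 3′ on the gene's strand, with matches to GCGTG or its reverse complement CACGC in capitals. The ALDH1A3 window (chr15:100879581-100879880, plus strand) has 2 matches, whose first bases lie at -197 and -43 from the start. The CYP1A1 window (chr15:74725479-74725778, minus strand) has 1 match, at -57.
ALDH1A3: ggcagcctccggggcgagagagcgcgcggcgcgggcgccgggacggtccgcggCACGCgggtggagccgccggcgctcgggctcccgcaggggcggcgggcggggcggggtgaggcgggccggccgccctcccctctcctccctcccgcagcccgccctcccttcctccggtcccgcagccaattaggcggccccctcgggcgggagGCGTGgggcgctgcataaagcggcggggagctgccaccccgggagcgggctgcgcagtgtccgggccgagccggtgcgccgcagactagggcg
CYP1A1: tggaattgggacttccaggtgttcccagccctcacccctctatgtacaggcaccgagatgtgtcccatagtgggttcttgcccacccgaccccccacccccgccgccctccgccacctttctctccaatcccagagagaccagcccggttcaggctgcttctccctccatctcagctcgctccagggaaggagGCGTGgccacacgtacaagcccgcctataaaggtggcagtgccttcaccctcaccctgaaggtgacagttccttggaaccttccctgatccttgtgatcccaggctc

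Matches to GCGTG on either strand were common. They occurred in 36.5% of 35116 promoter windows of 27305 genes, in 32.7% of 49 windows of 36 tested members and in 25.2% of 123 windows of the 98 members with an entry. The ALDH1A3 window was 81.7% G or C, against 61.0% for the CYP1A1 window. A match describes letters in the window and shows neither binding nor its absence. Sequence outside the windows was not searched, so the numbers of matches do not rank the genes as receptor targets.

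With all 6 libraries in edgeR, none of the remaining phase I members was called. CYP20A1, a CYP without an established substrate, had 15.3, 13.5 and 13.9 CPM in ABS, against 12.9, 11.6 and 12.4 CPM in Ctrl. The groups did not overlap, but the log2 fold change of 0.21 had a 95% interval of -0.05 to 0.48 (edgeR adjusted p = 0.626). ALDH1B1 had 65.7, 63.0 and 57.1 CPM in ABS, against 76.5, 75.6 and 64.0 CPM in Ctrl. Its groups overlapped in CPM through Ctrl replicate 3 but not in TPM (69.4 to 76.6 TPM in ABS, 78.4 to 87.9 TPM in Ctrl). The log2 fold change was -0.22 (95% interval -0.42 to -0.02, unadjusted p = 0.0339 and adjusted p = 0.450 in edgeR). With replicates 1 and 2 only, its edgeR adjusted p was 0.0232. CYP2S1 had 15.4, 15.3 and 20.3 CPM in ABS and 20.0, 19.2 and 19.5 CPM in Ctrl, with ABS replicate 3 above all the others. CYP3A5 had 19.8, 20.5 and 24.2 CPM in ABS and 20.5, 21.2 and 19.2 CPM in Ctrl, again highest in ABS replicate 3.

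No vitamin D or retinoic acid clearance gene passed, and both groups overlapped for each gene tested. CYP24A1 had 74.3, 78.2 and 77.6 CPM in ABS and 77.7, 77.4 and 81.2 CPM in Ctrl, a log2 fold change of -0.04 with a 95% interval of -0.19 to 0.12. CYP26B1, which degrades retinoic acid, had 2.94, 2.05 and 2.47 CPM in ABS and 2.68, 3.14 and 3.89 CPM in Ctrl (log2 fold change -0.38, 95% interval -0.95 to 0.20, edgeR adjusted p = 0.714). CYP2R1 had 10.0, 8.87 and 7.93 CPM in ABS and 9.61, 10.5 and 10.0 CPM in Ctrl (log2 fold change -0.16, 95% interval -0.48 to 0.15). CYP26A1, which also degrades retinoic acid, had 16, 10 and 3 counts in ABS and 0, 9 and 6 counts in Ctrl and was not tested. Of the fatty acid hydroxylases, CYP4F11 had the highest TPM, and its scaled count was 4.87 ± 0.743 CPM in ABS and 4.76 ± 0.330 CPM in Ctrl (SD, n = 3 each). The 6 log2 fold changes of the class ran between -0.46 and 0.15.

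The other abundant ALDH genes had narrow intervals. ALDH18A1 had 251, 256 and 217 CPM in ABS and 250, 243 and 218 CPM in Ctrl, a log2 fold change of 0.03 with a 95% interval of -0.16 to 0.21. ALDH3A2, which oxidises long-chain fatty aldehydes, had 96.0, 113 and 116 CPM in ABS and 103, 99.1 and 109 CPM in Ctrl (0.06, 95% interval -0.12 to 0.25). In both genes the libraries of the 2 groups interleaved. ALDH3B1, which acts on lipid aldehydes at membranes, had a log2 fold change of -0.03 (95% interval -0.20 to 0.13), and ALDH9A1, an enzyme of carnitine and GABA synthesis, one of -0.02 (95% interval -0.23 to 0.20). ALDH16A1, a member thought to lack catalytic activity in mammals, had 45.8, 42.4 and 45.0 CPM in ABS and 52.2, 50.1 and 44.6 CPM in Ctrl. Its groups overlapped in CPM through Ctrl replicate 3, and its log2 fold change was -0.14 (95% interval -0.33 to 0.05). ALDH4A1, a proline degradation enzyme, had 8.51, 11.8 and 7.89 CPM in ABS and 10.5, 10.2 and 10.6 CPM in Ctrl, and 34.0% of its 100-base stretches also occur in other genes, chiefly AL080251.1. ALDH5A1, which clears succinic semialdehyde from GABA breakdown, had 11.5, 13.7 and 10.9 CPM in ABS and 10.1, 12.5 and 9.93 CPM in Ctrl (0.15, 95% interval -0.17 to 0.47).

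**Figure D5:**
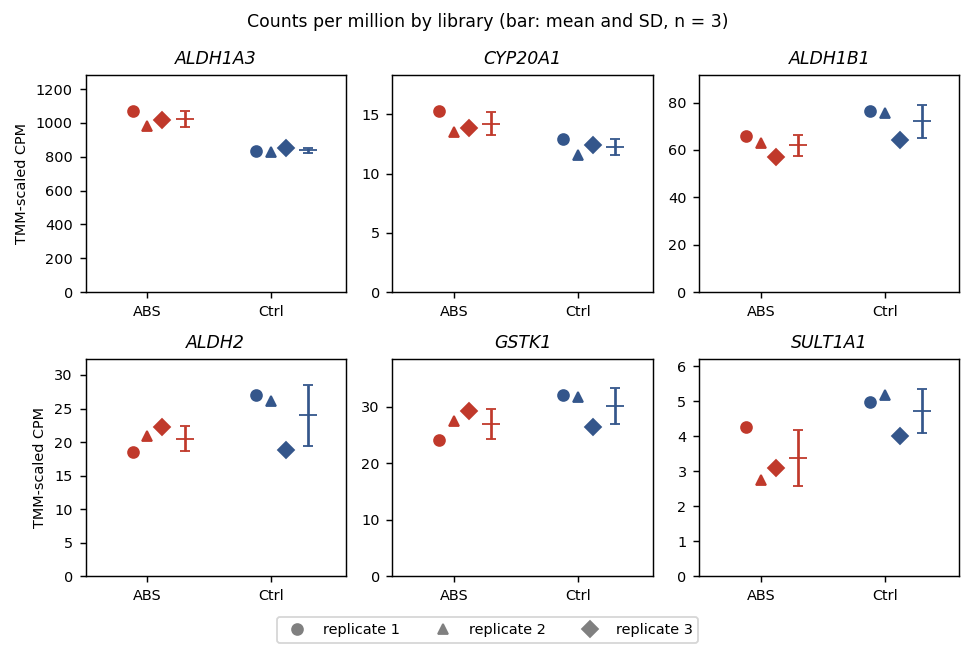
TMM-scaled CPM per library (vertical axis) of 6 members in ABS (left) and Ctrl (right), with the marker giving the replicate and the bar the mean and SD (n = 3). ALDH1A3 and CYP20A1 do not overlap, and for ALDH2 and GSTK1 the replicate 3 libraries are ordered opposite to replicates 1 and 2.

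The sign over replicates 1 and 2 was opposite to that between the replicate 3 libraries for 22 of the 46 tested members (47.8%), and for 47.8% of all 13619 tested genes with a value in both. ALDH2 and GSTK1 were among them. ALDH2 had 18.6, 20.9 and 22.2 CPM in ABS, against 27.0, 26.1 and 18.8 CPM in Ctrl. It was lower in ABS by 0.43 on the log2 scale over replicates 1 and 2 and higher by 0.24 between the replicate 3 libraries. GSTK1, a mitochondrial and peroxisomal glutathione transferase, had 24.1, 27.5 and 29.2 CPM in ABS, against 32.1, 31.7 and 26.4 CPM in Ctrl. Its log2 difference was -0.31 over replicates 1 and 2 and 0.15 between the replicate 3 libraries. Within replicates 1 and 2 alone edgeR called 4 of 47 members, with 13.2% of all tested genes called. These were ALDH1A3 (log2 fold change 0.31), ALDH1B1 (-0.24), GSTK1 (-0.31) and ALDH2 (-0.43). The difference between the replicate sets was not tested, and leaving out the libraries that stand apart lowers the spread by construction.

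No glutathione transferase passed the test. Of 9 tested GST genes, 8 had a negative and 1 a positive log2 fold change, with a median of -0.08. Over all tested genes 49.0% were positive. The 95% interval of each of the 9 included 0, and the count of signs was not tested. All 3 MGST intervals lay within 1.5-fold. GSTP1 had 721, 716 and 720 CPM in ABS and 749, 778 and 701 CPM in Ctrl, a log2 fold change of -0.05 with a 95% interval of -0.19 to 0.10. GSTO1 had 119, 124 and 119 CPM in ABS and 136, 133 and 123 CPM in Ctrl (log2 fold change -0.12, 95% interval -0.27 to 0.04, edgeR adjusted p = 0.643). On the CPM scale ABS replicate 2 of GSTO1 lay above Ctrl replicate 3, whereas in TPM the groups did not overlap (258, 268 and 269 TPM in ABS, 291, 282 and 280 TPM in Ctrl). GSTM3 was the GST gene with a positive value, at 33.1, 34.9 and 35.6 CPM in ABS and 33.8, 33.7 and 30.4 CPM in Ctrl (log2 fold change 0.08, 95% interval -0.12 to 0.28). GSTO2, a dehydroascorbate reductase encoded beside GSTO1, had 47.5, 44.7 and 45.4 CPM in ABS and 48.3, 50.1 and 47.1 CPM in Ctrl (-0.08, 95% interval -0.25 to 0.10). MGST1 had a log2 fold change of 0.00 with a 95% interval of -0.17 to 0.17. MGST2 and MGST3, which conjugate glutathione to lipids, each had a log2 fold change of -0.08.

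The GSTP1 and GSTO1 promoters are shown because both genes are high in these cells and carry the core letters TGACNNNGC of the antioxidant response element, the site of NRF2. The windows, cut and oriented as above, were searched on both strands and have the matches in capitals. The GSTP1 window (chr11:67583562-67583861, plus strand) has 1 match, at -66, and the GSTO1 window (chr10:104254642-104254941, plus strand) has 2, at -226 and -161.
GSTP1: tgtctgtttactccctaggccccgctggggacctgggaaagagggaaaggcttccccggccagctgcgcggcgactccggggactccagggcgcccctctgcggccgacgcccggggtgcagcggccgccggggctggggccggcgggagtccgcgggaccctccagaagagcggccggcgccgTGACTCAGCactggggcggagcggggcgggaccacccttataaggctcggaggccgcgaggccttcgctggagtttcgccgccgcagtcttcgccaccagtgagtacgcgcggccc
GSTO1: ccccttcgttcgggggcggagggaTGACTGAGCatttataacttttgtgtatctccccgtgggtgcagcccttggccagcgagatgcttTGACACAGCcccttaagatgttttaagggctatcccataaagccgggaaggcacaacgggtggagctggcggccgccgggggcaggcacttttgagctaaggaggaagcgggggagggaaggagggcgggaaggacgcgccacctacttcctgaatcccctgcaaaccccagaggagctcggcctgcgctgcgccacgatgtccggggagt

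Such matches occurred in 13.3% of all windows, in 14.3% of those of tested members and in 13.0% of those of members with an entry. Neither GSTP1 nor GSTO1 passed the test in ABS, and GCLM, described below among the glutathione synthesis genes, did. A match shows neither binding nor its absence, and the part of NRF2 in these levels was not tested. MGST1, also high in these cells, has a match in a window that is not shown.

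No UGT or SULT gene passed, and most were too low for narrow intervals. UGT8 had 32.0, 33.8 and 33.3 CPM in ABS and 36.6, 35.8 and 30.2 CPM in Ctrl, a log2 fold change of -0.05 (95% interval -0.26 to 0.17). UGT1A1, the bilirubin-conjugating enzyme, had 17, 22 and 10 counts in ABS and 6, 6 and 13 counts in Ctrl. The groups overlapped, and its log2 fold change of 0.91, the largest of any member, had a 95% interval of -0.30 to 2.12 (edgeR adjusted p = 0.653). SULT1A1 had 4.28, 2.75 and 3.10 CPM in ABS and 4.97, 5.19 and 4.01 CPM in Ctrl (log2 fold change -0.48, 95% interval -0.99 to 0.02, edgeR adjusted p = 0.546). SULT2B1 had 14.1, 16.6 and 21.4 CPM in ABS and 15.4, 18.7 and 18.5 CPM in Ctrl.

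Some of these values rest on sequence shared between genes. The UGT1A genes share their last exons, and 71.6% of the 100-base stretches of UGT1A10, 48.8% of those of UGT1A1 and 38.7% of those of UGT1A6 also occur in other genes. How the counting treated reads that match several genes is not given in the sources used here, so the split of UGT1A reads is uncertain, and so are the counts of 0 in UGT1A3, UGT1A4, UGT1A5, UGT1A8 and UGT1A9. SULT1A3 shares 80.4% of its stretches with other genes, chiefly its copy SULT1A4, which was at 0. SULT1A3 had 9, 17 and 14 counts in ABS and 5, 3 and 7 counts in Ctrl, with no overlap between the groups, but did not pass the filter and was not tested. GSTT2B shares 78.5% with other genes, chiefly GSTT2. At least 20% was shared by 22 of the 125 members, 5 of the 46 tested members and 12 of the 52 members at 0. Among those at 0, CYP2C19 shares 35.1%, chiefly with AL583836.1, and GSTM1 shares 29.1%, chiefly with GSTM2. Their counts of 0 are therefore uncertain too.

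Summed over each class, the enzyme levels of both groups differed most in the 3 classes dominated by ALDH1A3, CYP20A1 and CYP26B1. The retinal-oxidising ALDH class, which is nearly all ALDH1A3, summed to 1023 ± 45.1 CPM in ABS and 838 ± 14.0 CPM in Ctrl (SD, n = 3 each), a ratio of 1.22. The class of CYP genes with other or unknown substrates, nearly all CYP20A1, summed to 14.2 ± 0.954 CPM in ABS and 12.3 ± 0.746 CPM in Ctrl, a ratio of 1.15 with no overlap between the groups. The retinoic acid clearance class, mostly CYP26B1, summed to 2.89 ± 0.608 CPM in ABS and 3.45 ± 0.734 CPM in Ctrl, a ratio of 0.837 with overlap. The cytosolic GST class summed to 965 ± 3.07 CPM in ABS and 1004 ± 53.1 CPM in Ctrl, and the other ALDH genes to 694 ± 31.4 CPM in ABS and 707 ± 40.6 CPM in Ctrl. The CYP enzymes for drugs and xenobiotics summed to 39.2 ± 5.12 CPM in ABS and 40.5 ± 0.933 CPM in Ctrl. That sum leaves out CYP1A1 and CYP1B1, which were called higher in ABS. The UGT class summed to 39.8 ± 0.974 CPM in ABS and 39.6 ± 4.47 CPM in Ctrl. The MGST class, at 309 ± 9.27 CPM in ABS and 313 ± 22.5 CPM in Ctrl, and the SULT class, at 21.3 ± 3.26 CPM in ABS and 22.5 ± 1.81 CPM in Ctrl, differed by less than the SD of either group. The cytosolic GST and drug CYP means differed by less than the larger but more than the smaller of their SDs. In bulk RNA a change in the number of expressing cells and a change in RNA per cell cannot be told apart.

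Among partner genes of the pathway, GCLM and TIPARP were the called ones. Of 16 genes for electron donors and cofactors, 16 were tested and 1 rose, GCLM, the modifier subunit of the enzyme that begins glutathione synthesis, the GST co-substrate. GCLM had 158, 153 and 131 CPM in ABS, against 92.1, 92.0 and 99.4 CPM in Ctrl (log2 fold change 0.64 ± 0.08 SE, edgeR adjusted p = 0.00498). Its catalytic partner GCLC did not pass (log2 fold change 0.44, edgeR adjusted p = 0.0596). POR, the reductase that feeds electrons to microsomal CYP enzymes, had 132, 135 and 136 CPM in ABS and 130, 136 and 123 CPM in Ctrl.

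Of 21 receptors and factors of enzyme induction, 15 were tested and 1 rose, TIPARP, a feedback inhibitor of the aryl hydrocarbon receptor, with a log2 fold change of 0.95 ± 0.10 (SE, edgeR adjusted p = 0.000782). NFE2L2, which encodes NRF2, did not pass (log2 fold change 0.49, edgeR adjusted p = 0.0534). NR1I2 (PXR), a receptor for foreign compounds, and NR1H4 (FXR), a bile acid receptor, were the 2 of the 21 genes with 0 counts in every library. Among other oxidation, reduction and hydrolysis enzymes 0 of 21 tested genes passed in edgeR, among other conjugation enzymes 0 of 7 and among exporters 0 of 8, and at an unadjusted p under 0.05 the numbers were 0, 0 and 1. The same numbers were 3 of 16 for electron donors and cofactors and 6 of 15 for receptors and factors of induction, against 9.75% of all tested genes. These lists were chosen with earlier results of these data known, so their shares do not show enrichment. Among the other oxidation, reduction and hydrolysis enzymes the smallest p belonged to AKR1C2 (log2 fold change -0.85) and AKR1B10 (1.11). Among the other conjugation enzymes it belonged to NAT1 (0.39) and ACSM3 (-0.45), and among the exporters to ABCG2 (0.36) and ABCC2 (0.72).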

How the data were processed

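Polyadenylated RNA of 3 ABS and 3 Ctrl cultures of OE33 cells was analysed from 1 table of raw gene counts that the authors deposited. Per the submitters' processing notes, HISAT2 2.0.5, featureCounts 1.5.0-p3 and the GRCh38 (hg38) genome were used. The annotation release, strand setting and treatment of multi-mapping reads are not given in the sources used here. All 58735 identifiers and lengths equalled GENCODE 29.

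Differential expression was tested with edgeR 4.0.16 (R 4.3.3) by a quasi-likelihood F-test on group alone, after filterByExpr (minimum count 10, minimum total 15) and TMM scaling. P-values were adjusted by Benjamini-Hochberg over 13768 genes, with a threshold of 0.05. Log2 fold changes are ABS minus Ctrl. The 95% intervals use the standard error and the total degrees of freedom of the quasi-likelihood fit, prior plus residual. CPM was TMM-scaled. TPM used the deposited lengths, or APPRIS principal transcripts as an alternative added after seeing the data. Alternatives were limma-voom 3.58.1, DESeq2 1.42.0, other scalings and filters, a replicate block and left-out libraries. The procedure was checked on simulated counts. Library totals were 22145676 to 25235686, and intervals and limits cover counting error and replicate spread only.

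Members and gene lists were chosen with earlier results of these data known. The rule named the 25 highest Ctrl TPM, the 10 smallest p, the highest tested member of each class and the tested retinoid, vitamin D, bile acid and steroid genes, and in other lists the called genes and the 2 smallest p. Other genes, such as undetected or sequence-sharing members, partner receptors and POR, were named after their values were seen. Promoter sequences are from RefSeq (GRCh38.p14) and matched 98 of the 125 members by symbol.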

Additional observations from a re-analysis of the deposited data

How the results depend on the processing

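The count of 60 genes over the whole table moved with the processing. It was 35 with library size alone, 409 with no filter, 264 with DESeq2, 350 with the replicate block, 465 with a term for the replicate 3 libraries and 1813 with replicates 1 and 2 only, and 12 to 438 when 1 library was left out (13, 18 and 273 without ABS replicate 1, 2 and 3, and 17, 12 and 438 without Ctrl replicate 1, 2 and 3). The 0 members called became 1 with no filter, DESeq2, the replicate block and the replicate 3 term, 4 with replicates 1 and 2 only, and 0 to 1 when 1 library was left out, the 1 being ALDH1A3 each time. The cause was not tested. ALDH1A3 kept a log2 fold change of 0.25 to 0.32 over its 15 alternatives and passed without ABS replicate 3 (adjusted p = 0.0442) and without Ctrl replicate 3 (adjusted p = 0.0260) in edgeR, but with none of the other 4 libraries left out. Of the 31 named members tested, 22 kept their direction in every alternative run, and 24 of 463 member values changed sign without a call. Class ratios moved by less than the replicate spread with library size alone. The labels do not say that libraries of equal replicate number share a culture or day. Deviations of same-numbered libraries correlated at 0.0425, 0.0333 and 0.167 for replicates 1, 2 and 3, the last being the highest of all pairs. ABS replicate 3 correlated at -0.125 and -0.0581 with Ctrl replicates 1 and 2, and ABS replicate 2 correlated best with Ctrl replicate 1 (0.0934). A shared factor of the replicate 3 libraries was not tested. Low counts limit 10 of the 46 tested members to intervals wider than 2-fold, and members at 0 could hold up to 3 counts per library.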
